A study of Mus musculus with 6 samples.

Results

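GATA1, GATA2 and GATA3 are zinc finger transcription factors of blood cells. They are described here with 7 genes of the erythro-megakaryocytic regulatory network, Zfpm1, Gfi1b, Tal1, Lyl1, Lmo2, Nfe2 and Ldb1, in granulocyte/macrophage progenitors (GMPs), the marrow precursors of granulocytes and monocytes. All probe sets annotated to 1 of these 10 genes were taken, which gave 12 of the 45037 probe sets on the array, with 2 each for Gata2 and Zfpm1. RNA was measured on Affymetrix Mouse Genome 430 2.0 arrays, 1 array per mouse, in GMPs of 2 IRF4/8DKO mice (lacking the transcription factors IRF4 and IRF8), 2 IRF8KO mice and 2 wild-type (WT) mice. All mice were of the BL6 strain. The IRF4/8DKO mice were a male of 16 weeks (replicate 1) and a female of 16 weeks (replicate 2), the IRF8KO mice a female of 12 weeks (replicate 1) and a male of 22 weeks (replicate 2), and the WT mice a male of 12 weeks (replicate 1) and a female of 19 weeks (replicate 2). The labels name 1 mouse per sample and do not say how the knockout alleles were made. GMPs were sorted as Kit+ CD34+ cells with high Fc gamma receptor II/III that lacked lineage markers, IL-7R and Sca1.

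GATA2 acts in stem cells, early progenitors and mast cells, GATA1 in red cells, megakaryocytes, eosinophils and mast cells, and GATA3 in T cells and innate lymphoid cells. In erythroid cells GATA1 takes over sites held earlier by GATA2 and works with its cofactor FOG1, coded by Zfpm1. DNA-bound complexes of the basic helix-loop-helix proteins TAL1 or LYL1 with GATA1 or GATA2 are bridged by LMO2 and LDB1. GFI1B is a repressor and NFE2 an activator, both used in erythroid and megakaryocytic maturation, and in progenitors GATA1 and the myeloid factor PU.1 (Spi1) are known to oppose each other.

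The values are intensities on a linear scale, and levels of different probe sets are not compared with each other. Median intensity per array lay between 34.1 and 37.5 in IRF4/8DKO, 38.4 and 38.6 in IRF8KO, and 41.7 and 45.3 in WT. Irf8 signal was not below WT in either knockout genotype. Its first probe set read 2611 and 4778 in IRF4/8DKO, 3811 and 2602 in IRF8KO, and 2588 and 3052 in WT, and its second 934 and 1900 in IRF4/8DKO, 1333 and 1131 in IRF8KO, and 507 and 704 in WT. Irf4 read 66.0 and 54.6 in IRF4/8DKO, 13.8 and 7.66 in IRF8KO, and 32.1 and 23.5 in WT on its first probe set. On its second, where the genotypes overlapped, it read 11.8 and 20.2 in IRF4/8DKO, 29.7 and 14.1 in IRF8KO, and 33.1 and 16.8 in WT. No source used here places these probe sets inside or outside a deleted stretch, so their signal does not check the labels, and genotype names below are those of the labels. The GMP genes Mpo, Elane, Prtn3 and Ctsg, which code for granule proteins, were at 4983 or more on every array. Tests were made with limma on log2(value + 10.5), with the 3 genotypes in one fit and Benjamini-Hochberg adjusted p-values over 29783 probe sets that passed a filter on low values. Of the 12 probe sets, 11 passed it. Gata1 and Gfi1b passed it only through their WT arrays, since all their knockout arrays lay under the 40th percentile that the filter used. Any call of either gene against WT with this filter is therefore not independent of it. With 2 arrays per genotype, the p-values set a difference against a spread estimated from these samples only. limma draws that spread partly from the probe set itself and partly from all tested probe sets. It includes differences of sex within each genotype, and of age within WT and IRF8KO.

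Gata2, Gata1, Gfi1b and Tal1 lay below both WT arrays in both knockout genotypes, while Lyl1, Lmo2, Nfe2 and Ldb1 did not. In IRF4/8DKO against WT, 1 of the 11 tested probe sets passed, a Gata2 probe set that fell, against 0.208% of all tested probe sets called lower, 0.0907% called higher and 0.299% called in either direction. In IRF8KO against WT none of the 11 passed limma's test, against 0.0201% of all tested probe sets called lower, 0.0101% called higher and 0.0302% in either direction, and 5 had an unadjusted p under 0.05, all lower, against 13.5% of all. Between IRF4/8DKO and IRF8KO none passed, against 0% of all probe sets, and 1 had an unadjusted p under 0.05, against 8.52% of all. Over all 12 probe sets, without the filter, the median log2 difference was -0.63 in IRF4/8DKO, -0.83 in IRF8KO and -0.05 between the knockouts, beside medians of -0.03, 0 and -0.03 over all 45037 probe sets. Both knockout genotypes share the WT arrays in their comparisons.

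**Figure D1:**
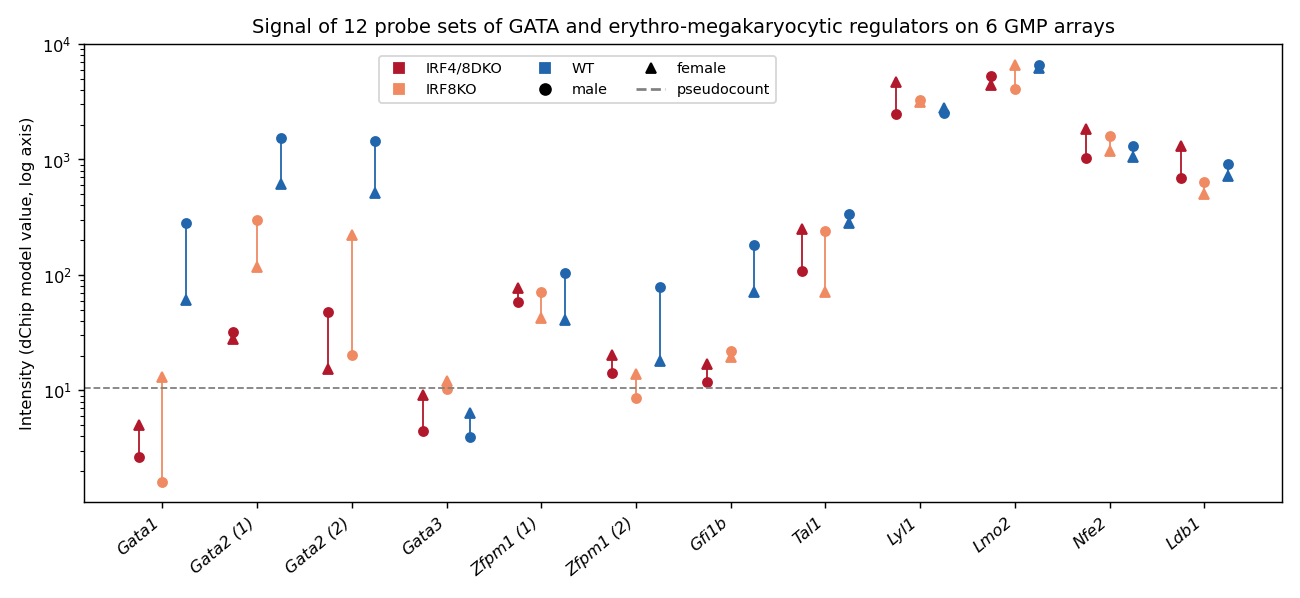
Intensity (log axis) of the 12 probe sets on each of the 6 arrays, with IRF4/8DKO, IRF8KO and WT from left to right within a gene, circles for male and triangles for female mice, lines joining the 2 arrays of a genotype and a dashed line at the pseudocount of 10.5 (1 and 2 in brackets stand for 1428816_a_at and 1450333_a_at of Gata2, and for 1423603_at and 1451046_at of Zfpm1). Gata1, both Gata2 probe sets, Gfi1b and Tal1 are below both WT arrays on all 4 knockout arrays, while the knockout arrays of Nfe2 lie on both sides of WT.

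Gata2 read 32.3 and 28.1 in IRF4/8DKO, 116.6 and 299.7 in IRF8KO, and 1533 and 615 in WT on probe set 1428816_a_at. The 3 genotypes did not overlap, with IRF4/8DKO lowest and WT highest. It fell 24.2-fold in IRF4/8DKO against WT (-4.60 ± 0.59 SE on the log2 scale, with an adjusted p of 0.0285 from limma). In IRF8KO it lay 4.95-fold below WT and did not pass (log2 fold change -2.31 ± 0.59 SE, limma adjusted p = 0.166). Set directly against IRF8KO, the IRF4/8DKO arrays lay 4.89-fold lower, which did not pass either (log2 fold change -2.29 ± 0.59 SE, limma adjusted p = 0.519, unadjusted p = 0.00401). Probe set 1450333_a_at read 47.7 and 15.3 in IRF4/8DKO, 222.2 and 20.3 in IRF8KO, and 1431 and 512 in WT. Both knockout genotypes lay below WT here too, but they overlapped each other. Its log2 fold change against WT was -4.49 ± 0.92 SE in IRF4/8DKO (limma adjusted p = 0.116) and -3.36 ± 0.92 SE in IRF8KO (limma adjusted p = 0.18). The 2 Gata2 probe sets ordered the IRF8KO mice differently, since replicate 2 was the higher on the first (299.7 against 116.6) and the lower on the second (20.3 against 222.2). The order of IRF4/8DKO below IRF8KO therefore held for both arrays on 1 of the 2 probe sets. The Gata2 call in IRF4/8DKO was lost without WT replicate 1 (limma adjusted p = 0.536), WT replicate 2 (0.119), IRF4/8DKO replicate 1 (0.141) or IRF4/8DKO replicate 2 (0.389), without the filter (0.0568) and with sex as a block (0.0774), in a range of 0.00154 to 0.536 over all alternatives.

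Gata1 was at the bottom of the scale in the knockouts. It read 2.64 and 4.98 in IRF4/8DKO, 13.1 and 1.62 in IRF8KO, and 281.8 and 61.1 in WT. All 4 knockout arrays lay below both WT arrays, and the knockout genotypes overlapped. The log2 fold change against WT was -3.34 ± 0.64 SE in IRF4/8DKO (limma adjusted p = 0.103) and -3.10 ± 0.64 SE in IRF8KO (limma adjusted p = 0.108), neither past the test. The WT mice themselves differed, with the male array (281.8) above the female one (61.1). Because 3 of the 4 knockout values were under the pseudocount, the size of this difference depends on it: the IRF4/8DKO log2 fold change was -4.16 with a pseudocount of 3.9 and -2.06 with one of 39.23.

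Gfi1b, which codes for a zinc finger repressor required in red cell and platelet formation, read 11.8 and 17.1 in IRF4/8DKO, 19.6 and 21.7 in IRF8KO, and 181.1 and 71.5 in WT. The knockout arrays were close to each other and below both WT arrays. The log2 fold change against WT was -2.34 ± 0.47 SE in IRF4/8DKO (limma adjusted p = 0.114) and -2.01 ± 0.47 SE in IRF8KO (limma adjusted p = 0.139). Between the knockouts the difference was -0.33 ± 0.47 SE on the log2 scale (limma adjusted p = 0.862).

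With both knockout genotypes joined against WT (4 arrays against 2), 2 of the 11 tested probe sets passed, both lower, against 0.413% of all tested probe sets called lower, 0.188% called higher and 0.601% called in either direction. They were Gata2 on probe set 1428816_a_at (log2 fold change -3.45 ± 0.51 SE, limma adjusted p = 0.0329) and Gata1 (-3.22 ± 0.56 SE, limma adjusted p = 0.0475). Gata1 had entered the test only through its WT arrays, so its call is not independent of the filter. The other Gata2 probe set (limma adjusted p = 0.0788) and Gfi1b (limma adjusted p = 0.0659) did not pass. The Gata1 call lay close to the threshold and was lost with pseudocounts of 3.9 and 39.23 (limma adjusted p = 0.0576 and 0.0669), without the filter (0.0788), with quantile normalization (0.0533), median centring (0.0693) or sex as a block (0.131). It was also lost without WT replicate 1 (0.651), WT replicate 2 (0.088), IRF4/8DKO replicate 1 (0.118) or IRF4/8DKO replicate 2 (0.197), and the Gata2 call without WT replicate 1 (0.606), WT replicate 2 (0.128), IRF4/8DKO replicate 1 (0.0919) or IRF4/8DKO replicate 2 (0.153). The Gata2 call was also lost without the filter (0.0583) and with sex as a block (0.0773). Both calls were kept with age as a covariate and without either IRF8KO array, and over all alternatives the limma adjusted p ranged from 0.0077 to 0.651 for Gata1 and from 0.00365 to 0.606 for Gata2. Of the 12 probe sets, 5 lay below WT on all 4 knockout arrays (Gata1, both of Gata2, Gfi1b and Tal1), against 10.9% of all probe sets, and 0 lay above, against 8.19%.

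Promoter sequences are shown for the 3 genes that differed most from WT among the tested regulators, Gata1, Gata2 (with 2 annotated starts) and Gfi1b, since GATA factors are known to regulate each other and Gfi1b. RefSeq entries of build GRCm38.p6, from 250 bases before to 50 after an annotated start, existed for 8 of the 10 genes in the table used, with 12 promoters, and not for Lmo2 and Nfe2. Capitals mark the GATA core GATAA on either strand. The Gata1 promoter lies at chrX:7967861-7968160 on the minus strand, the Gata2 promoters at chr6:88193641-88193940 and chr6:88198414-88198713 on the plus strand, and the Gfi1b promoter at chr2:28621933-28622232 on the minus strand.
Gata1: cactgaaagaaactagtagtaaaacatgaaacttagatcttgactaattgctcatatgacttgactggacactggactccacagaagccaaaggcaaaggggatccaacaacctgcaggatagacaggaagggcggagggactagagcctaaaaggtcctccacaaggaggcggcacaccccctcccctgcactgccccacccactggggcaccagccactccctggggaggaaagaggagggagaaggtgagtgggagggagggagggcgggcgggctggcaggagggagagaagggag
Gata2, first start: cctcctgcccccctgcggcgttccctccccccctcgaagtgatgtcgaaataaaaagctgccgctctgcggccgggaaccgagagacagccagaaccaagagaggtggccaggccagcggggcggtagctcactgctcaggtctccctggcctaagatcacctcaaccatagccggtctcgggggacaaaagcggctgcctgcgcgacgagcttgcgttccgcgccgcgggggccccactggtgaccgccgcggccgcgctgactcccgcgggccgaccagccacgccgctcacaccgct
Gata2, second start: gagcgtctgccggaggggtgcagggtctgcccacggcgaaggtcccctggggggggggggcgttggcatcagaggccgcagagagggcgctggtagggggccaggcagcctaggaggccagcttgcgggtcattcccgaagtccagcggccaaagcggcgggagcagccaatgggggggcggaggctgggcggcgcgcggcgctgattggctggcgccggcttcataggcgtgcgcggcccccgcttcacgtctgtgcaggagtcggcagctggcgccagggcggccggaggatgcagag
Gfi1b: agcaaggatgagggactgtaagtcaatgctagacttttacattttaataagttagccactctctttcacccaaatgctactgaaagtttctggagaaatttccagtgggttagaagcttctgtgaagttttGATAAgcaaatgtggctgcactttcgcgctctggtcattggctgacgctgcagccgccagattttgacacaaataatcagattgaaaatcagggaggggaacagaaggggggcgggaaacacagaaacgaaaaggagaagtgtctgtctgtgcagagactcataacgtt
The core GATAA was present in the Gfi1b promoter, 119 bases before the annotated start, and in neither the Gata1 nor the Gata2 windows. It was also found in 1 of 2 Tal1 and 1 of 3 Ldb1 promoters. Of 32851 promoters of the same length, 25.4% held it on either strand, so its presence in 3 of the 12 promoters is near that share. The NF-E2 and AP-1 type motif TGAGTCA was in 0 of the 12 (5.2% of all promoters) and the IRF-type motif, a pair of GAAA cores on 1 strand with 2 bases between them, in 0 of the 12 (3.44% of all promoters), both strands searched. These are matches of letters in short windows, and binding was not measured.

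Tal1, a basic helix-loop-helix factor at the top of the erythroid and megakaryocytic programme, read 107.3 and 249.6 in IRF4/8DKO, 71.6 and 238.5 in IRF8KO, and 338.1 and 283.9 in WT. All knockout arrays lay below WT, with the higher array of each knockout near the lower WT array. The log2 fold change against WT was -0.87 ± 0.62 SE in IRF4/8DKO (limma adjusted p = 0.768) and -1.16 ± 0.62 SE in IRF8KO (limma adjusted p = 0.451). Lyl1, its close relative with a broad role in progenitors, read 2474 and 4692 in IRF4/8DKO, 3146 and 3286 in IRF8KO, and 2534 and 2808 in WT. It was the highest on the female IRF4/8DKO array, and its log2 fold changes of 0.35 ± 0.31 SE in IRF4/8DKO and 0.27 ± 0.31 SE in IRF8KO against WT were within about 1 SE of 0 (limma adjusted p = 0.824 and 0.753).

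The genes of the bridging proteins, Lmo2 and Ldb1, did not pass limma against WT in either knockout. Lmo2 read 5244 and 4447 in IRF4/8DKO, 6604 and 4104 in IRF8KO, and 6591 and 6176 in WT. The IRF4/8DKO arrays lay below both WT arrays and the IRF8KO arrays on either side of them, at log2 fold changes of -0.40 ± 0.25 SE and -0.29 ± 0.25 SE (limma adjusted p = 0.716 and 0.644). Ldb1 read 696 and 1304 in IRF4/8DKO, 503 and 644 in IRF8KO, and 919 and 714 in WT. The IRF8KO arrays were the lowest, with a log2 fold change of -0.50 ± 0.42 SE against WT (limma adjusted p = 0.646), and between IRF4/8DKO and IRF8KO the difference was 0.73 ± 0.42 SE (limma adjusted p = 0.659). Nfe2, the p45 subunit of the NF-E2 activator, read 1039 and 1830 in IRF4/8DKO, 1182 and 1604 in IRF8KO, and 1312 and 1049 in WT. The genotypes overlapped, and the log2 fold change was 0.23 ± 0.38 SE against WT in each knockout (limma adjusted p = 0.914 in IRF4/8DKO and 0.835 in IRF8KO).

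The 2 probe sets of Zfpm1, the FOG1 gene, disagreed. Probe set 1423603_at read 58.3 and 77.1 in IRF4/8DKO, 41.98 and 71.2 in IRF8KO, and 103.7 and 40.9 in WT, with the WT mice on either side of the knockouts. Probe set 1451046_at read 14.1 and 20.4 in IRF4/8DKO, 13.9 and 8.51 in IRF8KO, and 78.0 and 18.0 in WT, and its high value came from the male WT mouse alone. Its log2 fold change was -0.87 ± 0.54 SE in IRF4/8DKO (limma adjusted p = 0.72) and -1.22 ± 0.54 SE in IRF8KO (limma adjusted p = 0.37), against 0.02 ± 0.50 SE and -0.23 ± 0.50 SE on the first probe set (limma adjusted p = 0.996 and 0.882). Gata3 did not pass the filter on low values and was not tested. It read 4.41 and 9.11 in IRF4/8DKO, 12.1 and 10.2 in IRF8KO, and 3.93 and 6.32 in WT, close to or below the pseudocount on all arrays.

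**Figure D2:**
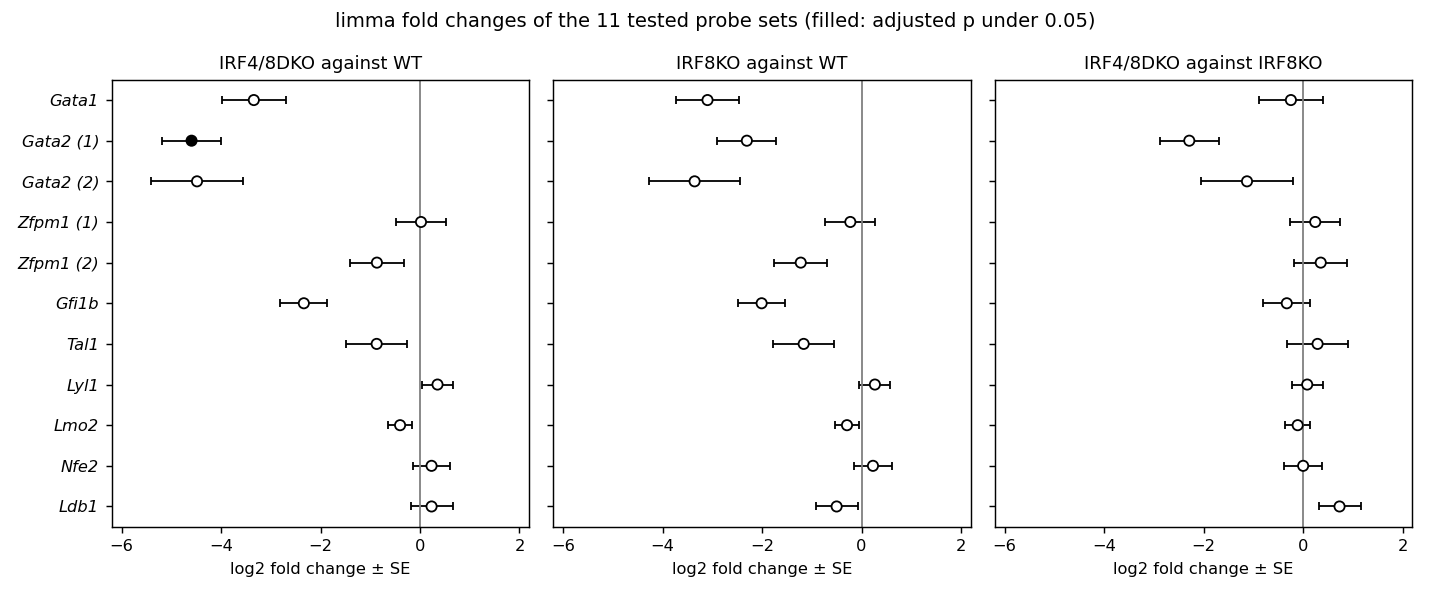
limma log2 fold changes (points) with standard errors (bars) of the 11 tested probe sets for IRF4/8DKO against WT, IRF8KO against WT and IRF4/8DKO against IRF8KO, with filled points for adjusted p under 0.05. Only Gata2 on probe set 1428816_a_at in IRF4/8DKO against WT is filled (-4.60 ± 0.59), and Gata1, Gata2 and Gfi1b lie left of -2 in both comparisons with WT.

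Counting arrays that did not overlap, 6 of the 12 probe sets lay below WT in IRF4/8DKO, against 23.4% of all probe sets, and 0 above, against 17.7%. In IRF8KO, 7 of 12 lay below WT, against 22.5% of all, and 2 above (Gata3 and Lyl1), against 20.7%. Between the knockouts, 3 of 12 lay lower in IRF4/8DKO (Gata2 on probe set 1428816_a_at, Gfi1b and Gata3), against 19% of all, and 2 higher (Zfpm1 on probe set 1451046_at and Ldb1), against 17.2%. Over the 6 arrays, on the log2 scale, Pearson's r was 0.98 between Gata1 and Gfi1b, 0.83 and 0.93 between Gata1 and the 2 Gata2 probe sets, and 0.79 between the Gata2 probe sets. With the other regulators, r of Gata1 was 0.89 and 0.32 for the Zfpm1 probe sets 1451046_at and 1423603_at, 0.71 for Lmo2, 0.52 for Tal1, 0.17 for Ldb1, -0.26 for Nfe2, -0.46 for Lyl1 and -0.56 for Gata3. Gata2 on probe set 1450333_a_at had r of 0.90 with Lmo2 and 0.22 with Tal1, against 0.47 and 0.58 for its probe set 1428816_a_at. These are descriptions over 6 arrays that share the split between knockout and WT.

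Each genotype had 1 male and 1 female mouse, so that the differences could also be read within a sex, without a test. Between the male arrays the IRF4/8DKO minus WT log2 difference was -4.48 for Gata1, -5.17 and -4.63 for Gata2 and -3.10 for Gfi1b. Between the female arrays it was -2.21, -4.02 and -4.34, and -1.57, in the same order of genes. For IRF8KO minus WT the male differences were -4.59 for Gata1, -2.32 and -5.55 for Gata2 and -2.57 for Gfi1b, and the female differences -1.60, -2.30 and -1.17, and -1.45. All 4 probe sets were thus lower in both sexes and differed more between the males, where the WT array was the higher of its genotype. For Gata2 on probe set 1428816_a_at in IRF8KO the sexes were nearly the same (-2.32 and -2.30). Over the 12 probe sets the IRF4/8DKO minus WT difference was below 0 for 11 between the males (median -1.15) and for 6 between the females (median -0.03). The IRF8KO minus WT difference was below 0 for 9 (median -0.59) and for 7 (median -0.36). These counts have no share over all probe sets beside them, which was not taken for single arrays. Median intensity of the whole array was also lower in IRF4/8DKO than in WT, at 37.5 against 45.3 in males and 34.1 against 41.7 in females. The male and female WT mice also differed in age, as did those of IRF8KO, so sex and age cannot be told apart there.

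**Figure D3:**
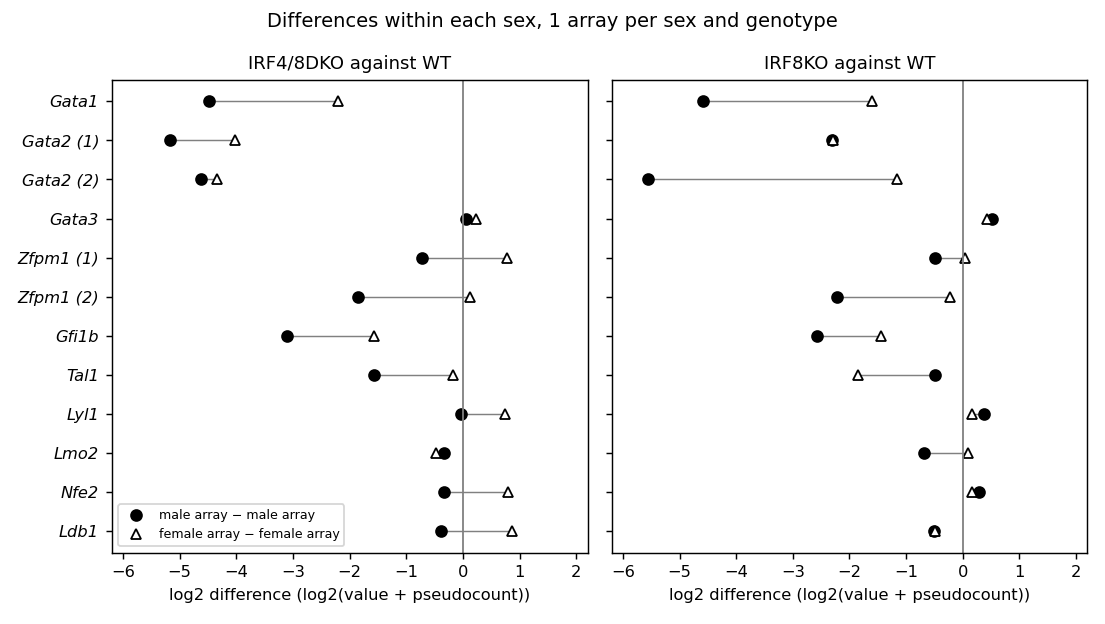
Differences on the log2(value + pseudocount) scale between the male arrays (circles) and between the female arrays (triangles) for the 12 probe sets, IRF4/8DKO against WT on the left and IRF8KO against WT on the right. Gata1, Gata2 and Gfi1b are below 0 in both sexes in both panels, while Nfe2, Ldb1, Lyl1 and both Zfpm1 probe sets lie on both sides of 0 in IRF4/8DKO.

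Genes that these factors are known to work with or to activate were read from 4 lists, described by their counts and medians without a set test. Of 20 cofactors and partners, 19 were tested and 0 passed limma in any comparison. At an unadjusted p under 0.05 there were 1 in IRF4/8DKO against WT (9.05% of all probe sets), 4 in IRF8KO against WT (13.5%) and 0 between the knockouts (8.52%). Their median log2 difference was -0.07 in IRF4/8DKO and 0.09 in IRF8KO against WT. Runx1, a haematopoietic factor that binds with the TAL1 complex, read 2482 and 2058 in IRF4/8DKO, 3629 and 2413 in IRF8KO, and 2816 and 1921 in WT. Fli1, an Ets factor of megakaryocytes, read 2759 and 1508 in IRF4/8DKO, 3207 and 1937 in IRF8KO, and 1413 and 1233 in WT. The knockout arrays of Fli1 lay above WT, with log2 fold changes of 0.62 ± 0.38 SE and 0.91 ± 0.38 SE (limma adjusted p = 0.714 and 0.347).

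Of 15 erythroid genes, 12 had a probe set with a single symbol and 10 were tested. Set against WT, 1 passed in IRF4/8DKO, lower, and 11 of 12 lay below WT, with a median log2 difference of -1.32. Of all probe sets, 0.208% were called lower there and 52.5% lay below WT. In IRF8KO 0 passed limma, with 5 at an unadjusted p under 0.05 (13.5% of all), and the median was -1.16 with 11 of 12 below WT (49.9% of all). The gene that fell was Tfr2, which codes for a transferrin receptor that takes part in iron sensing. It read 12.3 and 11.1 in IRF4/8DKO, 93.1 and 14.9 in IRF8KO, and 1047 and 536 in WT (log2 fold change -5.10 ± 0.66 SE in IRF4/8DKO, limma adjusted p = 0.0285). With both knockouts joined Tfr2 and the carbonic anhydrase gene Car2 fell (limma adjusted p = 0.0247 and 0.0381). Car2 read 142.5 and 56.1 in IRF4/8DKO, 553 and 114.2 in IRF8KO, and 4116 and 1773 in WT. Epor, the erythropoietin receptor gene, read 24.3 and 25.1 in IRF4/8DKO, 14.0 and 11.9 in IRF8KO, and 127.7 and 57.2 in WT, and did not pass (limma adjusted p = 0.317 and 0.116). Klf1, an erythroid factor that GATA1 activates, read 45.2 and 48.6 in IRF4/8DKO, 44.9 and 73.9 in IRF8KO, and 102.7 and 55.3 in WT, where the genotypes IRF8KO and WT overlapped (limma adjusted p = 0.787 in IRF4/8DKO and 0.789 in IRF8KO).

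Of 12 megakaryocyte and platelet genes, 10 had a probe set and 6 were tested. In IRF4/8DKO 1 passed, lower, and 10 of 10 lay below WT (median log2 difference -0.76), against 0.208% called lower and 52.5% below WT over all probe sets. In IRF8KO 0 passed limma, 2 had an unadjusted p under 0.05 (13.5% of all) and 8 of 10 lay below WT (49.9% of all), with a median of -0.50. Pf4, the gene of platelet factor 4, read 9.85 and 11.2 in IRF4/8DKO, 798 and 394 in IRF8KO, and 2516 and 590 in WT. It fell in IRF4/8DKO against WT (log2 fold change -5.88 ± 0.68 SE, limma adjusted p = 0.0261), while the IRF8KO arrays overlapped WT (-1.11 ± 0.68 SE, limma adjusted p = 0.521). The direct difference between IRF4/8DKO and IRF8KO was -4.77 ± 0.68 SE and did not pass (limma adjusted p = 0.364). Itga2b, the integrin alpha IIb gene, read 8.56 and 8.88 in IRF4/8DKO, 55.8 and 21.1 in IRF8KO, and 456 and 93.6 in WT (limma adjusted p = 0.103 and 0.215). Gp9, a subunit of the von Willebrand factor receptor, read 46.9 and 87.3 in IRF4/8DKO, 66.7 and 53.9 in IRF8KO, and 72.1 and 81.4 in WT, with IRF4/8DKO on both sides of WT.

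Of 12 mast cell, basophil and eosinophil genes, all had a probe set and 10 were tested. In IRF4/8DKO 3 passed, all lower, and 10 of 12 lay below WT (median log2 difference -1.34), against 0.208% called lower and 52.5% below WT over all probe sets. In IRF8KO 0 passed limma, 5 had an unadjusted p under 0.05 (13.5% of all) and 9 of 12 lay below WT (49.9% of all), with a median of -0.96. Cpa3, a mast cell protease gene, read 11.9 and 10.9 in IRF4/8DKO, 68.9 and 49.5 in IRF8KO, and 1526 and 537 in WT (log2 fold change -5.39 ± 0.54 SE in IRF4/8DKO, limma adjusted p = 0.02). Ms4a2, which codes for the beta subunit of the IgE receptor, read 78.3 and 69.3 in IRF4/8DKO, 318.8 and 66.7 in IRF8KO, and 1584 and 1415 in WT (-4.16 ± 0.64 SE, limma adjusted p = 0.0447). Prg2, the eosinophil major basic protein gene, read 121.2 and 17.9 in IRF4/8DKO, 3029 and 974 in IRF8KO, and 5863 and 3689 in WT (-6.25 ± 0.75 SE, limma adjusted p = 0.0285). Kit, a sort marker of GMPs that GATA2 is known to activate, did not pass, at 2426 and 1998 in IRF4/8DKO, 1824 and 2328 in IRF8KO, and 2170 and 1680 in WT. The calls in these lists rest on every array of both genotypes: without WT replicate 1 or WT replicate 2, 0 of 29783 probe sets passed limma in any comparison, and without IRF4/8DKO replicate 1 or replicate 2, 0 passed in IRF4/8DKO against WT. Leaving out either IRF8KO array did not move the log2 fold changes of that comparison. They stayed at -3.34 for Gata1, -4.49 for Gata2 on probe set 1450333_a_at and -2.34 for Gfi1b. Without IRF8KO replicate 1, IRF8KO rests on 1 mouse. Its log2 fold change against WT was then -3.58 for Gata1 and -4.82 for Gata2 on probe set 1450333_a_at, against -3.10 and -3.36 with all arrays. On that Gata2 probe set the mouse left out read 222.2 and the mouse kept read 20.3.

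**Figure D4:**
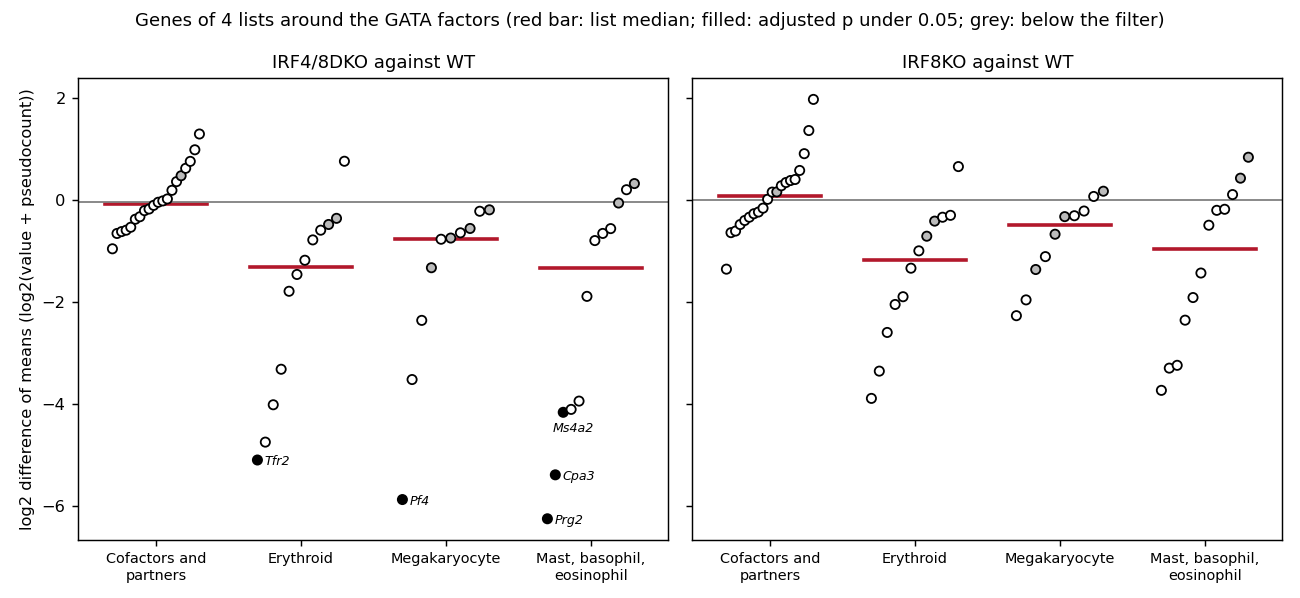
Log2 differences of means, on the log2(value + pseudocount) scale, of the genes in 4 lists for IRF4/8DKO against WT (left) and IRF8KO against WT (right), with red bars at list medians, filled points for limma adjusted p under 0.05, grey points for genes below the filter and a grey line at the median of all probe sets. The cofactors centre on 0 (medians -0.07 and 0.09), while erythroid genes centre on -1.32 and -1.16.

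Megakaryocyte, mast cell, erythroid and stem cell markers were mostly lower beside Gata1, Gata2 and Gfi1b, although the sort was against lineage markers, IL-7R and Sca1. Fewer cells of such a type and less RNA per cell cannot be told apart in these samples. Summed over 4 of 5 megakaryocyte markers, intensity was 71.1 and 112.9 in IRF4/8DKO, 926 and 474 in IRF8KO, and 3109 and 777 in WT. Over 6 of 6 mast cell, basophil and eosinophil markers it was 447 and 539 in IRF4/8DKO, 3931 and 1424 in IRF8KO, and 11173 and 7179 in WT. Over 3 of 5 mature erythroid markers it was 46.3 and 50 in IRF4/8DKO, 66.8 and 79.8 in IRF8KO, and 133.8 and 104.2 in WT. The mast cell and erythroid sums were lower on all 4 knockout arrays than on both WT arrays, and the megakaryocyte sum was so in IRF4/8DKO only. Within the erythroid sum, Alas2 read 60.07 on IRF8KO replicate 2, above both WT arrays (24.95 and 44.5). Slc4a1 also overlapped WT in IRF8KO (49.65 and 15.16 against 96.93 and 46.55), and Hba-a1 was below the filter. Pf4 made up most of the megakaryocyte sum in IRF8KO and WT and was the 1 marker of the 4 that overlapped WT in IRF8KO, since Itga2b, Gp9 and Ppbp lay below WT on both IRF8KO arrays. Prg2 was the largest part of the mast cell, basophil and eosinophil sum in IRF8KO (3029 and 974) and WT (5863 and 3689). Its log2 difference in IRF8KO against WT was -1.43, the smallest of the 6 markers, beside -3.73 for Cpa3 and -3.24 for Ms4a2. Stem cell markers (3 of 5) summed to 78.3 and 86.2 in IRF4/8DKO, 79.3 and 28.6 in IRF8KO, and 545 and 369 in WT. T cell and innate lymphoid markers (7 of 9), of cells known for Gata3, summed to 300.8 and 310.2 in IRF4/8DKO, 310.1 and 420.2 in IRF8KO, and 520.1 and 337.4 in WT, and B cell markers (4 of 5) to 370.6 and 736 in IRF4/8DKO, 459 and 382 in IRF8KO, and 395 and 407.5 in WT. GMP markers (11 of 11) summed to 54398 and 68291 in IRF4/8DKO, 49550 and 58246 in IRF8KO, and 44670 and 51842 in WT. Among them Cd34, a marker of the sort gate, read 590 and 509 in IRF4/8DKO, 440 and 669 in IRF8KO, and 1747 and 1401 in WT. Fcgr3, an Fc gamma receptor gene of the gate, read 2516 and 5863 in IRF4/8DKO, 2618 and 6315 in IRF8KO, and 1090 and 1259 in WT. Neither passed (limma adjusted p = 0.213 and 0.271 in IRF4/8DKO, 0.162 and 0.177 in IRF8KO). The part of these markers in the values of Gata1, Gata2 and Gfi1b was not tested.

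The genes whose log2 values over the 6 arrays were most like those of Gata1, among 13258 other genes by their representative probe sets, were Padi2 (r = 0.998), Atp1b2 (0.998), Thy1 (0.996), Fut8 (0.995) and Kcnk5 (0.994). Of these, Padi2, a peptidylarginine deiminase gene, read 121.1 and 139.8 in IRF4/8DKO, 162.3 and 124.3 in IRF8KO, and 627 and 285 in WT. For Gata2 on probe set 1428816_a_at they were Cd74 (0.997), F2r (0.996), Abi2 (0.984), Snapc5 (0.981) and Slc18a2 (0.976). Cd74, the gene of the MHC class II invariant chain, read 13.6 and 10.4 in IRF4/8DKO, 62.0 and 207.4 in IRF8KO, and 754 and 365 in WT. Its likeness to this probe set follows from how it was picked. On the other Gata2 probe set, 1450333_a_at, the IRF8KO arrays had the opposite order (222.2 and 20.3). In all, 58 genes reached r of 0.95 or more with Gata1 and 24 with Gata2. These values describe the same 6 arrays on which the genotypes separate.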

How the data were processed

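RNA of sorted GMPs from 6 mice was hybridised to 6 Affymetrix arrays, starting from 10 ng of RNA per sample per the labels. The deposited values are linear intensity values. The authors normalized them and derived them by the PM/MM difference model of dChip 1.3, per the series' design text; how they normalized is not stated there. Values ran from 0.69 to 16563.28 over 45037 probe sets, and the number of arrays limits the precision.

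A pseudocount of 10.5, set at the 25th percentile over the whole table, was added before log2; fold changes therefore understate those of low genes. Probe sets had to exceed the 40th percentile of an array on 2 or more of the 6 arrays, which left 29783. The 3 genotypes were fitted jointly by limma 3.58.1 (R 4.3.3) with a variance trend, no covariates, and 0.05 as threshold after Benjamini-Hochberg adjustment. The script was tested on simulated data.

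Platform symbols were updated through gene identifiers against RefSeq (34945 probe sets with 1 symbol, 932 with several, 9160 with none). For listed genes, the tested probe set of highest mean log2 value was used, or failing that the highest untested one. The text names all 10 regulators, up to 4 called genes and the first 2 tested genes of each list, and the 5 genes most like Gata1 and Gata2; the gate, GMP and targeted genes are checks, and any further gene was picked with its values in view. The regulators and lists were chosen with earlier results of these data known. Alternatives were pseudocounts of 3.9 and 39.23, no filter or the 60th percentile, quantile normalization, median centring, blocks for sex or replicate number, age in weeks as a covariate, and leaving out each array.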

Additional observations from a re-analysis of the deposited data

Results flagged for a closer look

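For 4 values the difference between the male arrays and that between the female arrays had opposite signs, each of at least 0.5 on the log2 scale. With 1 array per sex and genotype, the difference between the sexes was not tested. In IRF4/8DKO against IRF8KO, Gata2 on probe set 1450333_a_at gave 0.92 between the males and -3.17 between the females, Tal1 gave -1.08 and 1.66, and Nfe2 gave -0.62 and 0.63. In IRF4/8DKO against WT, Zfpm1 on probe set 1423603_at gave -0.73 between the males and 0.77 between the females. The other Gata2 probe set was lower in IRF4/8DKO than in IRF8KO in both sexes, at -2.86 between the males and -1.72 between the females.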

How the results depend on the processing

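With IRF4/8DKO against WT, 1 regulator probe set passed, and the number was 0 without the filter and with sex as a block, and 3 with age as a covariate. Leaving out any WT or IRF4/8DKO array lost the call. In IRF8KO against WT, where 0 passed, the number was 2 with age as a covariate. Between the knockouts it was 0 under every alternative. With both knockouts against WT, where 2 passed, it was 1 with either other pseudocount, the filter at the 60th percentile (where Gata1 was not tested), quantile normalization or median centring. The number was 0 without the filter or with sex as a block, and 4 with age as a covariate. Both calls were lost on leaving out any WT or IRF4/8DKO array. With age as a covariate or replicate number as a block, the calls added against WT included Gata1 or Gfi1b in each comparison. Both genes entered the test only through their WT arrays. Whether replicate numbers pair the samples is not known, and they were also used as a block. Deviations of same-numbered arrays correlated at 0.0411, 0.187 and 0.211, and their sexes did not match throughout. With this replicate block, 3, 2, 0 and 4 regulator probe sets passed in IRF4/8DKO against WT, IRF8KO against WT, IRF4/8DKO against IRF8KO and both knockouts against WT. Over all probe sets in the same order, calls were 89, 9, 0 and 179, against 216, 209, 1 and 391 with that block, 229, 136, 2 and 355 with age, 0, 2, 0 and 8 with sex as a block, 13, 5, 0 and 70 without the filter, 45, 6, 0 and 109 with median centring, and 63, 21, 0 and 147 with the pseudocount of 3.9. For both knockouts the filter at the 60th percentile left 116, and in IRF8KO against WT it gave 17, the pseudocount of 39.23 gave 5, and quantile normalization gave 30. The share of calls that were higher was 30.3%, 33.3% and 31.3% in IRF4/8DKO, IRF8KO and both against WT, and 42.2%, 50% and 44% with median centring, which moved the median log2 difference of all probe sets from -0.04 to 0.18 in IRF4/8DKO. In IRF8KO it was 43.3% with quantile normalization, 52.4% with the pseudocount of 3.9 and 70.6% with the filter at the 60th percentile, which gave 46.6% in both. Without the filter it was 53.8% in IRF4/8DKO. Changes of sign were confined to differences that had not passed: Zfpm1 on probe set 1423603_at was -0.0067 in IRF4/8DKO against WT with the pseudocount of 39.23, and 0.028 and 0.077 in both against WT with quantile normalization and median centring, where Ldb1 was 0.046 with median centring. With 1 array left out, the log2 difference in IRF4/8DKO against WT ranged from -0.11 to 0.81 for Lyl1, -0.56 to 0.60 for Zfpm1 on probe set 1423603_at, -0.17 to 0.64 for Nfe2 and -0.22 to 0.68 for Ldb1. In IRF8KO against WT it ranged from -0.80 to 0.35 for that Zfpm1 probe set and -0.64 to 0.050 for Lmo2. Between IRF4/8DKO and IRF8KO it ranged from -0.38 to 0.54 for Lyl1, -0.075 to 0.56 for Zfpm1, -0.72 to 0.23 for Gata1, -0.51 to 1.09 for Tal1, -2.59 to 0.33 for Gata2 on probe set 1450333_a_at, -0.40 to 0.41 for Nfe2 and -0.45 to 0.23 for Lmo2. In both knockouts against WT it ranged from -0.68 to 0.47 for Zfpm1 and -0.36 to 0.089 for Ldb1. A genotype left with 1 array was assumed to vary like the others. The cause of these shifts was not tested. Low signal, near or under the pseudocount on some arrays, limits Gata1, Gata3, Gfi1b and Zfpm1 on probe set 1451046_at.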

Other observations

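A few cofactor genes outside the naming rule, chosen after their values were seen, lay on 1 side of WT on most knockout arrays, and none passed limma. Spi1, the gene of PU.1, read 911 and 3301 in IRF4/8DKO, 1824 and 2797 in IRF8KO, and 949 and 798 in WT (log2 fold change 0.99 ± 0.55 SE in IRF4/8DKO and 1.37 ± 0.55 SE in IRF8KO, limma adjusted p = 0.673 and 0.331). Ssbp4, a single-stranded DNA binding protein that associates with LDB1, read 451 and 1481 in IRF4/8DKO, 1121 and 1548 in IRF8KO, and 280.2 and 381 in WT (1.30 ± 0.55 SE and 1.98 ± 0.55 SE, limma adjusted p = 0.527 and 0.191). Cbfa2t3, the gene of the corepressor ETO2, read 1082 and 479 in IRF4/8DKO, 342 and 861 in IRF8KO, and 2011 and 982 in WT (-0.95 ± 0.59 SE and -1.35 ± 0.59 SE, limma adjusted p = 0.72 and 0.368).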
